A study of Mus musculus with 2 samples.

Results

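The inner root sheath is the rigid sleeve that surrounds a growing hair shaft inside the follicle. Its cells form the Henle layer, the Huxley layer and the sheath cuticle, and they harden before the hair does and are shed in the upper follicle. Each layer fills with keratin intermediate filaments, which are built from an acidic type I chain paired with a basic type II chain. The type I chains of the sheath are Krt25, Krt26, Krt27 and Krt28, and the type II chains are Krt71, Krt72, Krt73 and Krt74. In human follicles Krt25, Krt27, Krt28 and Krt71 occupy all 3 layers, Krt26, Krt72 and Krt73 belong to the cuticle, and Krt74 belongs to the Huxley layer. Mutations of Krt25, Krt27 or Krt71 in mice give a wavy or curly coat.

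The 8 sheath keratins were followed in the tooth and the skin of newborn mice, from a study that asked how dental epithelium lacking Sox21 comes to resemble skin and used this pair of tissues to tell skin genes from tooth genes. Total RNA was taken from wild-type animals at postnatal day 0 (the study's methods name a stage 1 day later), labelled with Cy3 and hybridised to 1 Agilent mouse array per tissue, both on 1 slide. No transgene, deletion or treatment was named for either tissue, and the number of animals behind each RNA was not given. Genes were chosen by the name that the array gives to its probes. By this rule 7 of the 8 keratins were found among 24323 named genes. The eighth, Krt72, is present under the older name Krt72-ps, and RefSeq assigns the accession of that probe to Krt72, so its values are given as found by accession and are left out of the counts unless stated. Krt74 is annotated in the mouse as a transcribed pseudogene. With a single array per tissue no difference could be tested, and every difference below compares these 2 arrays and not the tissues in general. Both samples were bulk tissue, so fewer cells of a type and less RNA per cell cannot be told apart.

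Since a difference can be no better than the probe behind it, the probes come first. There were 9 probes, each printed as a single spot of 60 bases, and all lie on the minus strand of the mm9 build. The first 30 bases of each are given 5′ to 3′ in lower case to show that the probes of paralogs differ in sequence.
Krt25, chr11:99177867-99178575: cctcctcataggaggagatgaaggggcctg
Krt26, chr11:99190372-99190431: gatagattaatggaggtgtggttcagacaa
Krt27, chr11:99207158-99207828: gccaaggaagacccggaaatcagacaaaag
Krt28 first probe, chr11:99226329-99226388: acggcaaggctgagcagagggttcccttct
Krt28 second probe, chr11:99234074-99234133: agagctgcagtacgaatccctgagtgagga
Krt71, chr15:101564426-101564485: tcttcactttcttgaacccagaaccaggga
Krt74, chr15:101584822-101584881: aacagccagtccaagactagaggatcaagt
Krt72 (by accession), chr15:101606991-101607050: aaggatcctccggccaaaacctcaggcagc
Krt73, chr15:101623743-101623802: gcttaggttccagctctctgctcctgtacc
The longest stretch that any of these full-length probes shared with a probe of another sheath keratin was 10 bases. Probes were compared only with each other, so binding of a probe to the transcript of another keratin was not tested. The Krt25 and Krt27 probes spanned 709 and 671 bases of the genome, more than their own length, so each crosses an intron. The 2 Krt28 probes lie 7.75 kb apart, and the second is the one nearer to the 5′ end of the gene.

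Levels are given as log2 signal after background subtraction by the scanner software, minus the 75th percentile of the same array, so that 0 is the level of a fairly bright probe. A probe had to be well above background, by the software's own call, to count as measured on an array. The lowest value that met this call was -4.52 for tooth and -3.73 for skin. For a gene measured on 1 array, a bound was taken against that value on the other. Such a bound is not a strict minimum. A spot without the call can lie above that value, and another background correction can give a smaller difference. Since hybridisation differs from probe to probe, a value is compared between tissues within a probe only. Errors of single spots are those of the software's error model, carried to the log2 scale. As an independent gauge, the SD among repeated spots of 1 probe had a median of 0.0765 for tooth and 0.0865 for skin, which gives 0.115 for a difference. These errors cover the measurement of 1 RNA and not the spread between animals.

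Sheath keratins were higher in skin than in tooth wherever they could be measured. Of the 7 keratins found by name, 6 were well above background in skin, and all 6 had a log2 difference (skin minus tooth) of at least 4.92. Each of the 6 passed a 2-fold difference toward skin, which 14.2% of the 17409 named genes measured on at least 1 array did. Each also passed 16-fold, against 3.04% of those genes. The median difference was 6.79 over the 6 genes, against -0.04 over all 17409. Krt25 and Krt26 were not well above background in tooth, so they entered through skin alone, had to differ, and have no measured size. The other 4 were measured on both arrays and also passed 2-fold and 16-fold, which 11.4% and 1.57% of the 15271 named genes measured on both arrays did. With Krt25 and Krt26 at their bounds the median was 5.77. Krt72, found by accession, was higher in skin too, and with it the median at the bounds was 5.83. None of the 9 probes was saturated.

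**Figure D1:**
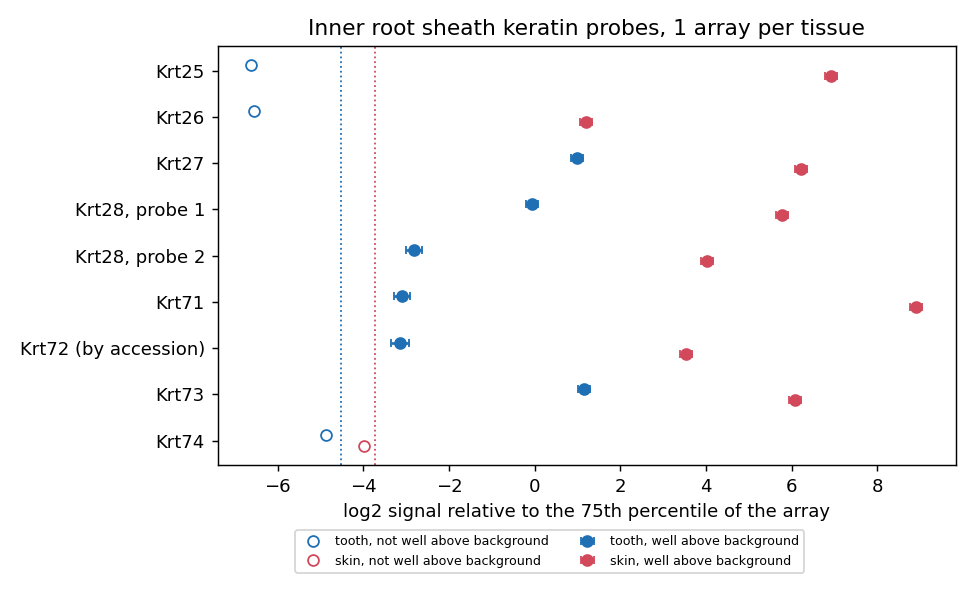
Log2 signal of each sheath keratin probe relative to the 75th percentile of its array (horizontal axis), for tooth (blue) and skin (red), 1 array each. Bars are the spot error of the scanner software, open circles are values not well above background, and dotted lines mark the lowest value well above background on each array. The skin value lay above the tooth value in all 9 probes, but neither value of Krt74 was well above background.

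Krt71, the type II chain found in all layers of the sheath, showed the widest difference among the members measured on both arrays. Its probe read -3.09 ± 0.18 in tooth and 8.89 ± 0.14 in skin, in background-subtracted signal 50.3 and 131352. The difference was 11.98 ± 0.23, or 4048-fold. It ranked second toward skin among the 15271 named genes measured on both arrays. The tooth value of Krt71 was close to the background, so the fold rests on a dim denominator, and normexp, another way of correcting the background, gave a difference of 10.76.

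Krt25 is a type I chain listed, like Krt71, for all layers. In skin its probe read 6.91 ± 0.14, a signal of 33321. In tooth the software replaced its signal by a surrogate value of 4.35, which stands only for a spot at background. Set against the dimmest probe that could be measured in tooth, Krt25 was 2759-fold higher in skin, a log2 bound of 11.43. Normexp correction, which raises dim values, gave a difference of 9.50, under that bound.

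Krt27 and Krt28 are the remaining type I chains of all 3 layers, and unlike Krt25 both were measured in tooth. For Krt27 the tooth array gave 0.99 ± 0.14 and the skin array 6.22 ± 0.14, which is 5.22 ± 0.20 higher in skin, or 37.3-fold. The brighter Krt28 probe read -0.06 ± 0.14 in tooth and 5.77 ± 0.14 in skin, and so differed by 5.83 ± 0.20, or 57.0-fold. Both tooth values lay well over the lowest measurable value of -4.52, so neither gene was near background in tooth. The second Krt28 probe read -2.82 ± 0.18 in tooth and 4.02 ± 0.14 in skin, which put it 6.83 ± 0.23 higher in skin. The 2 Krt28 probes thus gave the same direction but not the same size, and the gap between their differences was more than 3 times its error of 0.31. Whether the probes read different transcripts was not tested.

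Of the cuticle keratins, Krt73 and Krt72 were measured on both arrays. Krt73, a type II chain, stood at 1.15 ± 0.14 in tooth and at 6.07 ± 0.14 in skin, and the tissues differed by 4.92 ± 0.20, or 30.3-fold. Krt72, a further type II chain of the cuticle, had -3.15 ± 0.21 in tooth against 3.53 ± 0.14 in skin, with 6.68 ± 0.25 between them, or 103-fold. After normexp correction Krt72 differed by 5.28 and Krt73 by 4.74. Krt26, the type I chain of the cuticle, was not well above background in tooth, where it too was set to a surrogate value. In skin it read 1.20 ± 0.14, which is 52.5-fold above the dimmest measurable tooth probe, a log2 bound of 5.71. Its difference after normexp correction was 3.97, under that bound. All 3 cuticle keratins were thus higher in skin, whichever type they belonged to.

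Krt74 was the exception. Its probe gave a signal of 14.7 ± 4.29 in tooth and 17.4 ± 4.79 in skin, and neither was well above background, so no fold is given. A more lenient call of the software, which asks only that a spot differ from its background, accepted Krt74 on both arrays. The difference was then 0.88 with an error of 0.58.

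The order of the 5 members measured on both arrays was Krt73, Krt27, Krt28, Krt72 and Krt71, from the smallest to the largest difference. The gap from Krt73 to Krt27 was 0.30 with an error of 0.29, so these neighbours could not be placed in order by spot error alone. Between Krt27 and Krt28 the gap was 0.61 with an error of 0.29, about 2 errors wide but smaller than the distance between the 2 Krt28 probes. Krt28 and Krt72 were 0.85 apart with an error of 0.33, also less than the distance between those probes. After normexp correction their order turned, with 5.53 for Krt28 and 5.28 for Krt72. Only the gap of 5.30 from Krt72 to Krt71 was many times its error of 0.35. The bound of Krt26 (5.71 on the log2 scale) fell inside the run of the lower 4, and that of Krt25 (11.43) fell near Krt71. The sheath keratins therefore did not shift together by a fixed amount: Krt71, and Krt25 by its bound, stood apart from Krt73, Krt27, Krt28 and Krt72. The lower end of the order held chains of both types, Krt73 and Krt27. The upper end was Krt71 alone, a type II chain, and the type I chain Krt25 stood near Krt71 only by its bound. Krt27 and Krt28 are listed for the same layers as Krt25 and Krt71.

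The sequence before each gene was then read, to see what the members have in common apart from their signal. RefSeq (GRCm38.p6) gave the start region of 7 of the 8 genes. The 100 bases just upstream of the start are printed 5′ to 3′ in the direction of transcription for all 7, which lie on the minus strand. Capitals mark TATAAA, the letters of a TATA box.
Krt25, chr11:99322952-99323051: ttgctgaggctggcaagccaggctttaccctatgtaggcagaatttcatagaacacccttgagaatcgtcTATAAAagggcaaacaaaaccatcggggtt
Krt26, chr11:99337966-99338065: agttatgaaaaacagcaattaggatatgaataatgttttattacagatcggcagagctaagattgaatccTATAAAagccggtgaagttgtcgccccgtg
Krt27, chr11:99351119-99351218: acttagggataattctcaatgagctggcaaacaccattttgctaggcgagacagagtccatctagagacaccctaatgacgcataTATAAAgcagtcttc
Krt28, chr11:99374904-99375003: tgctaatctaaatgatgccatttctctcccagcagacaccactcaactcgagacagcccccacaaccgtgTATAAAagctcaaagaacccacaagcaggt
Krt71, chr15:101743098-101743197: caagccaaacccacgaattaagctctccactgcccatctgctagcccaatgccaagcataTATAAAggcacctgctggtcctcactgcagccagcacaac
Krt72, chr15:101786521-101786620: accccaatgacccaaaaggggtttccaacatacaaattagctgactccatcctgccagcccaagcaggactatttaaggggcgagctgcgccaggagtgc
Krt73, chr15:101802361-101802460: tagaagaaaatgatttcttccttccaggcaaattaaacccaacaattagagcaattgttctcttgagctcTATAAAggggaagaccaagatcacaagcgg
Counted from -1 for the last base before the start, the match began at -30 in Krt25, Krt26, Krt28 and Krt73, at -15 in Krt27 and at -40 in Krt71. Krt72 had no such match in these letters.

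Motifs were counted over the 250 upstream bases, with the letters chosen after the members' sequences and values had been seen, so the counts are a description. TATAAA on the strand of the gene was present in 6 of 7 members, in 9 of 30 other keratin genes and in 7.59% of 32851 promoters. AGATAA, a form of the GATA motif, was searched on both strands and was present in Krt25, Krt27, Krt71 and Krt73. It was found in 5 of 30 other keratin genes and in 9.99% of all promoters. TAATTA, a core that many homeodomain proteins recognise and which reads the same on both strands, was present in Krt25, Krt28, Krt71 and Krt73. The other keratin genes held it in 1 of 30 cases, and 4.84% of all promoters did. In Krt71 these motifs overlap, with the last base of the homeodomain core serving as the first of the GATA motif. The core for LEF1 and its relatives, CTTTGT on either strand, was found in Krt25 alone, against 16.5% of all promoters. CCAAT on either strand was present in 4 of 7 members and in 33.8% of all promoters. Gata3, a GATA factor needed for inner root sheath formation, read -2.95 in tooth against 4.80 in skin and so differed by 7.75. Lef1 differed by 1.79. Among the follicle factors, the homeodomain proteins Hoxc13, Msx2 and Lhx2 differed by 5.20, -2.40 and 8.41. Whether any of these factors acts on the sheath keratin genes was not tested. No binding was measured in these samples. Aligned over the 250 bases, the 21 pairs of members shared between 48.8% and 62.0% of their bases, with a median of 53.6%. The closest pair was Krt71 and Krt73, which had the widest and the narrowest difference measured on both arrays (11.98 and 4.92). Other promoters were not aligned in this way, so whether these shares exceed those of unrelated sequences was not tested.

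**Figure D2:**
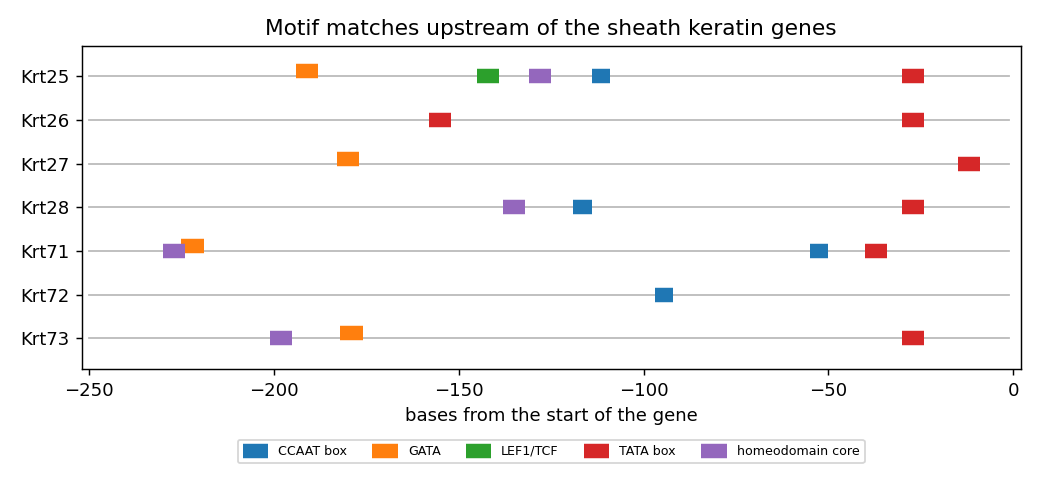
Positions of motif matches in the 250 bases upstream of 7 sheath keratin genes (horizontal axis, in bases from the start of the gene), 1 line per gene and 1 colour per motif. TATAAA matches sit between -40 and -10 in 6 genes, and Krt26 holds a further one that begins at -158.

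Keratin genes lie in clusters, the type I genes on chromosome 11 and the type II genes on chromosome 15, and the sheath genes are neighbours within each. Of the 27 type I keratins placed in order along the cluster by their probes, the 4 sheath genes took places 3 to 6 without a gap. The type II sheath genes took places 15 to 18 of 27, with Krt72 counted. The sheath probes spanned 56.3 kb on chromosome 11 and 59.4 kb on chromosome 15. Krt24, which lies next to Krt25, differed by 0.80, whereas Krt25 was higher in skin by 11.43 at its bound, or by 9.50 after normexp correction. Krt10, a keratin of differentiating epidermis, adjoins Krt28 on the other side and differed by 8.39. On chromosome 15, Krt5 of the basal epidermis differed by 0.94 beside Krt71. Krt2, an upper epidermal keratin, differed by 3.39 beside Krt73. Inside the type II run, Krt74 missed the well-above-background call in both tissues and lay between neighbours that were both higher in skin. Neighbours with unlike values were thus found at the borders with Krt24 and Krt5. Krt10 and Krt2, at the other borders, were higher in skin like the sheath genes beside them. Within the type I run Krt25 and Krt26 had only bounds, 11.43 and 5.71, so their differences cannot be compared.

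**Figure D3:**
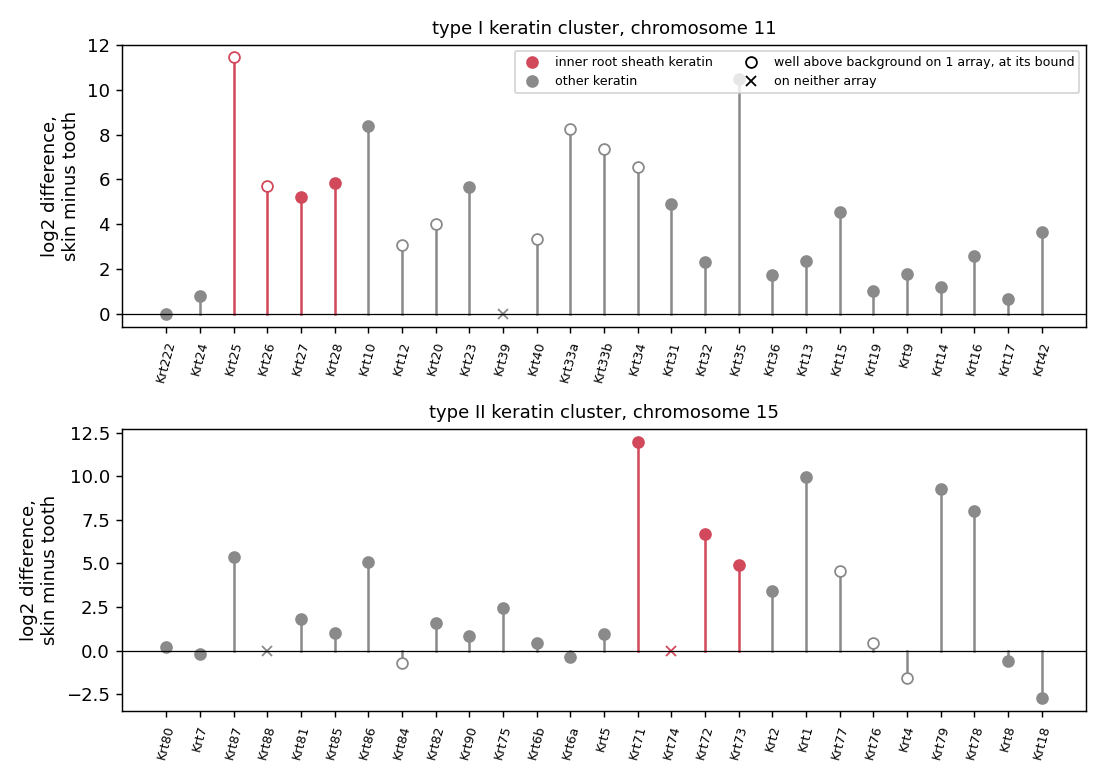
Log2 difference of skin minus tooth (vertical axis) for the keratin genes in probe order along the type I cluster (top) and the type II cluster (bottom), 27 genes each, sheath keratins in red. Open circles are genes measured on 1 array, drawn at the difference that uses the lowest measurable value on the other, and crosses are genes measured on neither. As drawn, Krt25 and Krt71 are the tallest of their clusters, and Krt24 and Krt5 beside them lie under 1.

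Other follicle and epidermal genes were set beside the sheath keratins as values, since 1 array per tissue allows no test between lists. Among all named genes measured on at least 1 array, 14.2% passed 2-fold and 3.04% passed 16-fold toward skin. Of those measured on both arrays, 11.4% and 1.57% did. These shares apply to every list below. Partners of the sheath keratins are the matrix protein trichohyalin (Tchh), enzymes of the families that modify and cross-link it, and factors of sheath cells. The list also holds Cdsn and Cst6, which belong to none of these groups and differed by 8.95 and 6.32. How much of the skin signal of this list came from the epidermis was not tested. Of these 12 genes all were measured, 8 passed 2-fold and 6 passed 16-fold toward skin, none was 2-fold higher in tooth, and the median difference was 4.09. Tchh read -0.29 in tooth against 6.16 in skin and differed by 6.44. Padi3, which converts arginine of trichohyalin to citrulline, differed by 2.79. The brightest probe of Tgm3, a transglutaminase that cross-links trichohyalin and keratins, differed by only 0.10, but its other probe differed by 5.62, so the gene has no settled size. Dlx3, a homeodomain factor used in both hair and tooth, differed by -0.76. The partners thus ranged from -0.76 to 8.95. Without Tgm5, which was measured in skin alone and so had to differ, the median of the other 11 was 2.79. Of these 11, 7 passed 2-fold and 5 passed 16-fold toward skin.

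Type I shaft keratins build the hair itself. Of 9 on the array, 4 were measured on both arrays, and these had a median difference of 3.62, with all 4 past 2-fold and 2 past 16-fold toward skin. A further 4 (Krt33a, Krt33b, Krt34 and Krt40) were measured in skin alone and so had to differ. With them the median was 6.89, or 5.71 at the bounds. Krt35, an early keratin of the hair matrix and cuticle, differed by 10.47. Krt33a was 308-fold higher in skin against the dimmest measurable tooth probe, a log2 bound of 8.27, but differed by 6.41 after normexp correction. Type II shaft keratins had a median of 1.70 over 6 genes, of which 5 passed 2-fold and 2 passed 16-fold toward skin. The sixth, Krt84, was measured in tooth alone. It was 1.65-fold higher there against the lowest measurable skin value, but differed by only -0.04 after normexp correction. Krt85, an early hair matrix keratin, differed by 1.01 by its brightest probe and by 3.46 and 9.22 by its other probes, so that median depends on the probe taken. Companion layer and outer root sheath keratins, which lie just outside the inner sheath, had a median of 0.68 over 5 genes, with 2 at least 2-fold and none 16-fold higher in skin. Krt75, the companion layer keratin, differed by 2.43, and Krt17 of the outer sheath by 0.68. When the arrays were scaled to spike-in RNA, the median of that list was -0.01 and Krt17 was at -0.01 also. Epidermal keratins had a median of 4.56 over 7 genes, and of 3.98 over the 6 measured on both arrays, of which 3 passed 16-fold toward skin. Follicle transcription factors had a median of 1.63 over 8 genes, with 5 past 2-fold toward skin and 1, Msx2, past 2-fold toward tooth. Foxn1 and Hoxc13, factors of the hair matrix and shaft, differed by 2.85 and 5.20. Side by side, these lists did not share 1 size of difference. The mixed list of companion and outer sheath keratins had the smallest median. Krt75 of the companion layer, at 2.43, was above the medians of the type II shaft keratins and the follicle factors.

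**Figure D4:**
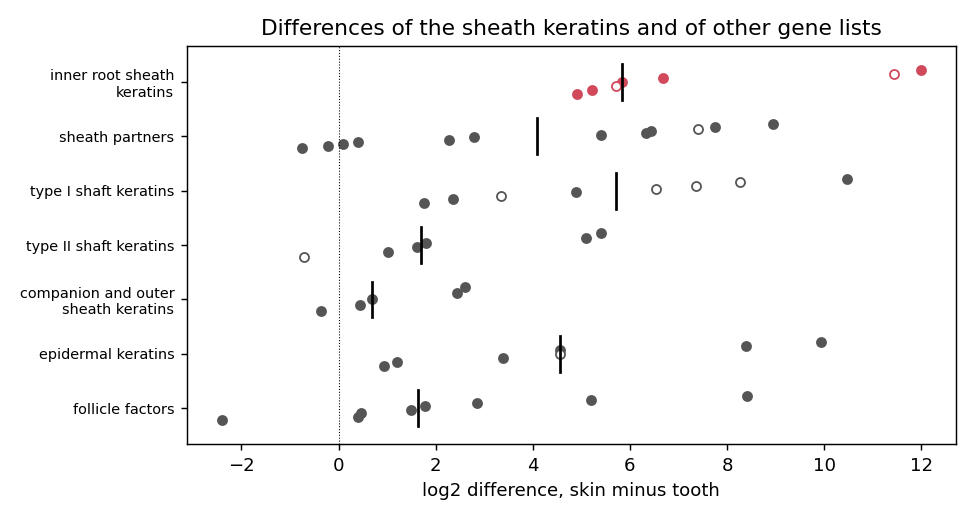
Log2 difference of skin minus tooth (horizontal axis) for the genes of each list, 1 point per gene measured on at least 1 array, black bars at the medians. Open circles are genes measured on 1 array, drawn at the difference that uses the lowest measurable value on the other, and Krt72 is included among the sheath keratins. The 7 sheath keratins lie between 4.92 and 11.98, all to the right of the companion list, whose highest value is 2.61.

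Because Krt27, Krt28 and Krt73, and more dimly Krt71 and Krt72, were measured in tooth, the tissues were checked against their markers. All 4 ameloblast markers (Amelx, Ambn, Enam, Mmp20) and all 3 dentin markers (Dspp, Dmp1, Phex) were well above background in tooth, and none was in skin. Amelx was 16383-fold higher in tooth against the dimmest measurable skin probe, a log2 bound of -14.00, but differed by -12.57 after normexp correction. Cornified epidermis markers (Flg, Lor, Krt1, Krt10) were measured on both arrays and were higher in skin by 8.39 to 12.89. Their summed signal, in units of the 75th percentile, was 5.97 in tooth and 3756 in skin. All 3 hair matrix and shaft markers (Krt35, Krt85, Hoxc13) were well above background in tooth, with values of -4.00, 3.83 and -2.46. Their summed signal was 14.4 in tooth and 124 in skin. The tooth sum came almost wholly from the brightest Krt85 probe, which differed by 1.01, against 3.46 and 9.22 for its other probes. In tooth 3 of 4 melanocyte markers, all 3 oral mucosa markers, all 3 muscle markers and 1 of 3 fat markers were well above background. In skin all of these melanocyte, muscle and fat markers were, with median differences of 6.39, 3.35 and 4.07. Of the mucosal keratins Krt13 was in skin, while Krt4 and Krt76 were not. No marker of any list was listed at 0. The part of these other cells in the tooth signal of the sheath keratins was not tested.

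The 3 other named genes, measured on both arrays, whose difference lay nearest to the members' median of 6.79 were then listed. They were Cnfn, a protein of the cornified envelope, with 6.83, Gm3776 with 6.75, and the epidermal cytokine Il1f6 with 6.74. There were 13 genes on both arrays within 0.2 of that median. That median rests in part on the tooth surrogate of Krt26. Around 5.53, the median of the 4 members found by name and measured on both arrays, the nearest genes were Egr2, Elovl4 and H60c, with differences of 5.51, 5.49 and 5.48, chosen after their values were seen. With 2 arrays this likeness is a single number per gene.

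**Figure D5:**
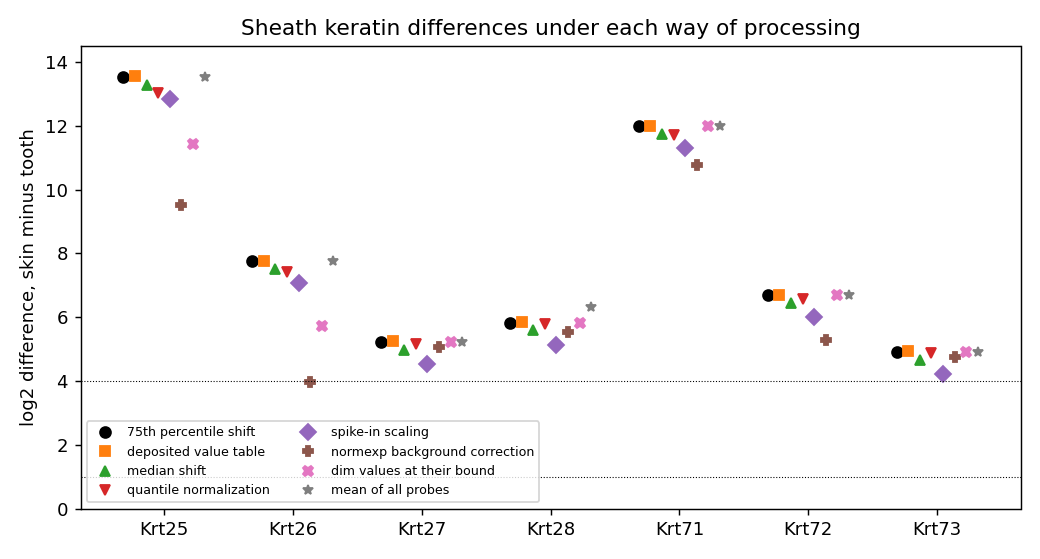
Log2 difference of skin minus tooth (vertical axis) of the 7 measured sheath keratins under 8 ways of processing, 1 symbol each, with dotted lines at 2-fold and 16-fold. Scaling moved each gene by less than 1, background correction moved the genes that were dim in tooth the most, and only Krt26 fell below the 16-fold line, at 3.97 after normexp correction.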

How the data were processed

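RNA of 1 tooth and 1 skin sample from wild-type mice was measured on Agilent mouse arrays with Cy3. The deposited spot values were intensities from Agilent Feature Extraction (version 10.7.3.1), per the file headers, with background subtracted, trends removed and dim values replaced by surrogates. These files also held yes-or-no calls for background, saturation and outlier spots. The authors also deposited a ratio for each spot, its intensity over 1 factor per array.

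Here outlier spots were removed, spots were averaged per probe, log2 intensity was taken and the 75th percentile over the probes of each array was subtracted. By these calls 56.7% of tooth and 52.5% of skin probes were well above background, and the number of arrays limits the precision. The brightest probe stood for a gene, named through its accession in RefSeq (82.1% of named probes matched) or else by the array. A gene entered if measured on at least 1 array. A value below background was bounded by the lowest measured value of that array.

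Alternatives were a median shift, spike-in scaling (8 spike-ins), quantile normalization, normexp (limma 3.58.1, offset 50), the deposited ratios, the mean of all probes, and other filters. Genes named in the text were all members, genes of the lists, the members' neighbours in the clusters and the 3 genes nearest to the members' median. Members and lists were chosen with earlier results of these data known. The computation was tested on simulated data.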

Additional observations from a re-analysis of the deposited data

How the results depend on the processing

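All 6 sheath keratins found by name and measured in skin stayed at least 2-fold higher in skin under every scaling and background correction, and with both arrays required the count was 4 of 4. The count at least 16-fold higher was 6, and it was 5 under normexp correction and 4 with both arrays required. With Krt72 added by accession, an alternative chosen after seeing the data, the median was 6.68 and both counts were 7. The median difference of 6.79 moved by more than the spot scatter in 9 cases. It was 6.54 with a median shift, 6.10 with spike-in scaling, 6.59 with quantile normalization, 5.30 with normexp, 7.04 with the mean of all probes, 5.83 with no filter and also with the lenient call, 5.77 with dim values at their bound and 5.53 with both arrays required. The 2 filters brought Krt74 in, and the last setting left Krt25 and Krt26 out. Of 68 values for single members under the alternatives, 27 moved by more than the scatter and none changed sign. Of 24 list medians 19 moved and 1 changed sign, that of the companion list, from 0.68 to -0.0102 with spike-in scaling. Spike-in scaling shifted the median of all genes by -0.69, a median shift moved it by -0.25, and dropping the filter by 0.22. No paired analysis was possible because each tissue has 1 array. No replicate could be left out for the same reason.

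Signal over background limits the tooth values of Krt25, Krt26 and Krt74, and Krt71 and Krt72 were dim there too, so their folds depend on the background correction, and Krt28 and Krt72 change places under normexp.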
